A study of Homo sapiens with 3 samples.

Results

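The genes of the endosomal sorting complexes required for transport (ESCRT) were followed through a pooled CRISPR knockout screen for surface HLA-B in K562, a human leukaemia cell line. The 33 members were chosen by name as the subunits of ESCRT-0, ESCRT-I, ESCRT-II and ESCRT-III, the VPS4 ATPases with their partner VTA1, and 3 proteins that act beside them (PTPN23, PDCD6IP and USP8). The members and their classes were chosen with earlier results of these data known. All 33 members were found among the 20381 genes of the library, by gene symbol in the names of the single guide RNAs (sgRNAs). They were covered by 303 of the 189398 gene-targeting sgRNAs that appeared in any library. Most members (24) had 10 sgRNAs, 5 had 9, TSG101 had 8, CHMP3 and CHMP4A had 4 and VPS4A had 2.

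K562 cells expressing Cas9 were infected with a lentiviral sgRNA library at 0.3 virus particles per cell and selected with puromycin at 1 μg/mL for 72 h. In the high screen, cells were given interferon-γ (IFN-γ) at 1 ng/mL 24 h before sorting, and those with the most HLA-B were taken in sorts on days 18 and 25. Sorted cells (HLA-B high sorted) were set against the unsorted pool of the same screen (high-screen control). Another unsorted pool came from the low screen (low-screen control), in which IFN-γ was given at 25 ng/mL and sorting took place on days 7 and 15. All groups shared the Cas9 transgene and the sgRNA library, and the cells were mixed populations, not clones. There was 1 library per group, and the error between replicate screens is therefore unknown for every comparison. The HLA-B high sorted library held 34266318 reads matched to sgRNAs, the high-screen control 22562241 and the low-screen control 98426251. Levels are given as reads per 1000000 matched reads (CPM).

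ESCRT proteins act in sequence on the endosome. ESCRT-0 gathers membrane proteins that carry ubiquitin, ESCRT-I and ESCRT-II pass them on and deform the membrane, and ESCRT-III forms filaments that pinch the cargo into vesicles inside the endosome, which later fuses with the lysosome. VPS4 pulls the filaments apart so that they can be used again. MHC class I that has been marked with ubiquitin is among the known cargoes of this route. The same ESCRT-III and VPS4 proteins also seal membranes at the end of cell division and around the nucleus.

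Among all 33 genes, sgRNAs against CHMP5 were by far the most abundant in the sort. CHMP5 is an ESCRT-III subunit that binds VTA1, the activator of VPS4. Its sgRNAs summed to 955 CPM in the HLA-B high sorted library (95% Poisson interval 944 to 965), against 22.0 CPM in the high-screen control (20.1 to 24.0) and 32.2 CPM in the low-screen control (31.1 to 33.3). These intervals cover counting error of PCR reads only. The summed level was 43.4 times that of the high-screen control and 29.7 times that of the low-screen control. Of the other 32 members, none exceeded 2.73 times its level in the high-screen control. The gene lies on chromosome 9 at 33264877 to 33282068 (GRCh37, plus strand), and no other protein-coding gene of the annotation overlaps it.

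The gain came from several sgRNAs of the gene and not from 1 alone. sgRNA 8 had 20183 reads among HLA-B high sorted cells, against 25 reads in the high-screen pool and 326 in the low-screen pool. sgRNA 7 had 9146 reads in the sort, against 137 and 189 in the high-screen and low-screen controls. sgRNA 6 had 1732 reads in the sort, against 58 and 180. All 3 lay far above both pools. sgRNA 5, with 1210 sorted reads against 43 in the high-screen pool and 91 in the low-screen pool, did so as well. The other 6 sgRNAs did not: sgRNAs 2 and 9 were absent from the sort, and sgRNAs 1, 3, 4 and 10 had between 46 and 144 sorted reads. sgRNA 1 had 107, against 5 in the high-screen pool and 658 in the low-screen pool. sgRNA 3 had 46, against 37 and 467. sgRNA 4 had 142, against 85 and 135, and sgRNA 10 had 144, against 55 and 768. sgRNA 8 supplied 61.7% of all CHMP5 reads in the sort. Without it the summed level was still 17.5 times that of the high-screen control.

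**Figure D1:**
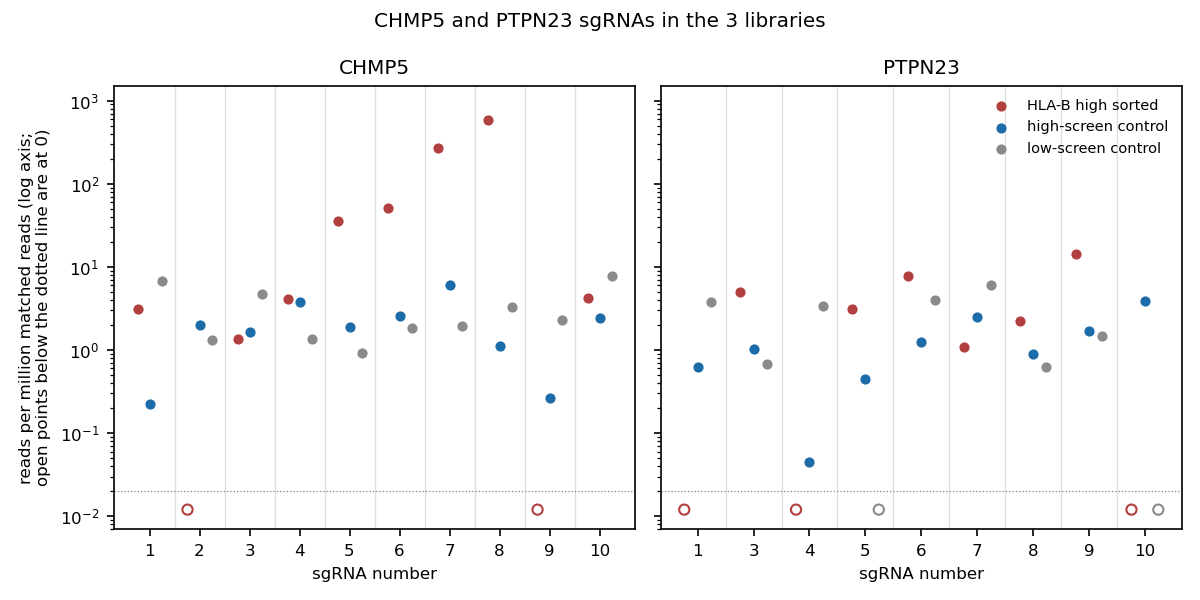
Level of each CHMP5 sgRNA (left) and PTPN23 sgRNA (right) in CPM on a log axis, with 1 point per library: HLA-B high sorted in red, high-screen control in blue, low-screen control in grey. Open points below the dotted line are sgRNAs with no reads in that library. CHMP5 sgRNAs 5 to 8 reached 35.3 to 589 CPM in the sort, and PTPN23 sgRNAs 3, 5, 6, 8 and 9 reached 2.25 to 14.4 CPM.

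To compare sgRNAs, sorted reads were scaled to the total of the control and a log2 ratio was taken after adding 1 to both counts, for sgRNAs with 10 or more control reads. The 8 CHMP5 sgRNAs that met this minimum against the high-screen control had log2 ratios of -5.52, -0.28, 0.14, 0.77, 4.18, 4.27, 5.45 and 9.00. Their median of 2.48 was the highest of any member. The gene ranking used redundant siRNA activity (RSA), as the study did, in which a small p means that the sgRNAs of a gene lie together at 1 end of the ranking of all sgRNAs. The call needed an RSA p under 0.001 that rested on 4 or more sgRNAs. It goes by rank alone, so a gene can be called enriched on sgRNAs whose log2 ratios are below 0 but above those of most sgRNAs. CHMP5 was called enriched, with an RSA p of 1.65e-07, 4 sgRNAs at the best rank and place 7 among 20314 genes. The call was lost with at least 50 control reads required, where 2 of its 4 remaining sgRNAs lay at the best rank, and with the most extreme sgRNA of each gene left out, where 3 of 7 did. Set against the exact distribution of the score and adjusted by Benjamini-Hochberg over all genes (exact adjusted p), the value was 0.00314. Each such p says how closely a gene's sgRNAs agree inside these libraries, not how replicate screens would agree.

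PTPN23 was the second member called. It encodes HD-PTP, a relative of ALIX that links cargo to ESCRT-III. Its 9 listed sgRNAs summed to 33.6 CPM in the HLA-B high sorted library (31.7 to 35.6), against 12.3 CPM in the high-screen control (10.9 to 13.9) and 20.0 CPM in the low-screen control (19.2 to 20.9). The level in the sort was 2.73 times that of the high-screen control, and 1.81 times without the most abundant sgRNA. The gene lies on chromosome 3 at 47422501 to 47454925 (GRCh37, plus strand).

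Most PTPN23 sgRNAs were either above both pools or absent from the sort. sgRNA 9 had 492 reads among HLA-B high sorted cells, against 38 reads in the high-screen pool and 145 in the low-screen pool. sgRNA 6 had 268 sorted reads, against 28 and 397 in the high-screen and low-screen controls. sgRNA 3 had 170, against 23 and 67. In CPM all 3 were above both pools, sgRNA 6 at 7.82 CPM in the sort, against 1.24 and 4.03 CPM. sgRNA 5 had 107 sorted reads, against 10 in the high-screen control and none in the low-screen control. sgRNA 8 had 77, against 20 and 61. sgRNAs 1, 4 and 10 had no sorted reads, and sgRNA 7 had 37, against 57 and 593.

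Against the high-screen control, 5 of the 8 PTPN23 sgRNAs with enough reads had a log2 ratio above 1 (1.30 to 3.06), and the gene's median was 1.77. PTPN23 was called enriched at an RSA p of 0.000437 with 4 sgRNAs at the best rank, in place 74. The exact adjusted p was 0.826, so the gene did not pass after adjustment over all genes. Its control counts were low: 6 of the 8 sgRNAs had control counts of 10 to 49, and all 5 of those above 1 were among them. Over the safe-targeting sgRNAs, which cut sites of no known function, 12.1% of those with 10 to 49 control reads had a log2 ratio above 1, and 11.6% of those with 50 or more. With at least 50 control reads required, only 2 PTPN23 sgRNAs were left, at -1.19 and -6.46, and the call was lost. It was also lost with the most extreme sgRNA of each gene left out, where 3 sgRNAs lay at the best rank. The part that low counts play in the PTPN23 call was not tested.

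The calls of CHMP5 and PTPN23 were 2 of 33 members, where 0.537% of all genes were called enriched against the high-screen control (109 of 20314). Because the members were chosen with earlier results of these data known, this contrast is not an independent test of the group. When the same RSA p was asked for with 4 sgRNAs above a log2 ratio of 1 instead, 80 genes were called (68 of them among the 109), CHMP5 and PTPN23 among them. At an exact adjusted p under 0.05, 1 member passed (CHMP5), against 0.0541% of all genes. At an unadjusted exact p under 0.05, 3 members passed (CHMP1A, CHMP5 and PTPN23, 9.09% of 33), against 5.18% of all genes. No member was called depleted against the high-screen control, where 0.414% of genes were. At an unadjusted exact p under 0.05 for depletion, 1 member passed (CHMP3), against 5.67% of all genes.

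As a group, the other 31 ESCRT genes had values near those of all gene-targeting sgRNAs in the sort. Of their 284 sgRNAs, 150 had any read in the HLA-B high sorted library (52.8%, exact 95% interval 46.8 to 58.7), and those with enough control reads had a median log2 ratio of -4.17, with a median over the gene medians of -4.31. Over all 303 sgRNAs, 164 had any read in the sort (54.1%, interval 48.3 to 59.8), against 96.7% in the high-screen pool and 89.1% in the low-screen pool. Among all gene-targeting sgRNAs, 49.2% had any read in the sort. The median log2 ratio of the members' 270 ranked sgRNAs was -3.99, beside -4.39 over all gene-targeting sgRNAs and -4.25 over safe-targeting sgRNAs. Log2 ratios are given on the scale of total reads, on which a typical inactive sgRNA thus lies well below 0. The gene medians of 31 members were below 0 and those of 2 above, where 571 of all 20314 gene medians were above 0. Scaled to the safe-targeting sgRNAs instead, 19 of 33 members had a median above 0, beside 45.9% of all genes. On the scale of total reads the median over the 33 gene medians was -4.25, beside -4.30 over all genes.

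**Figure D2:**
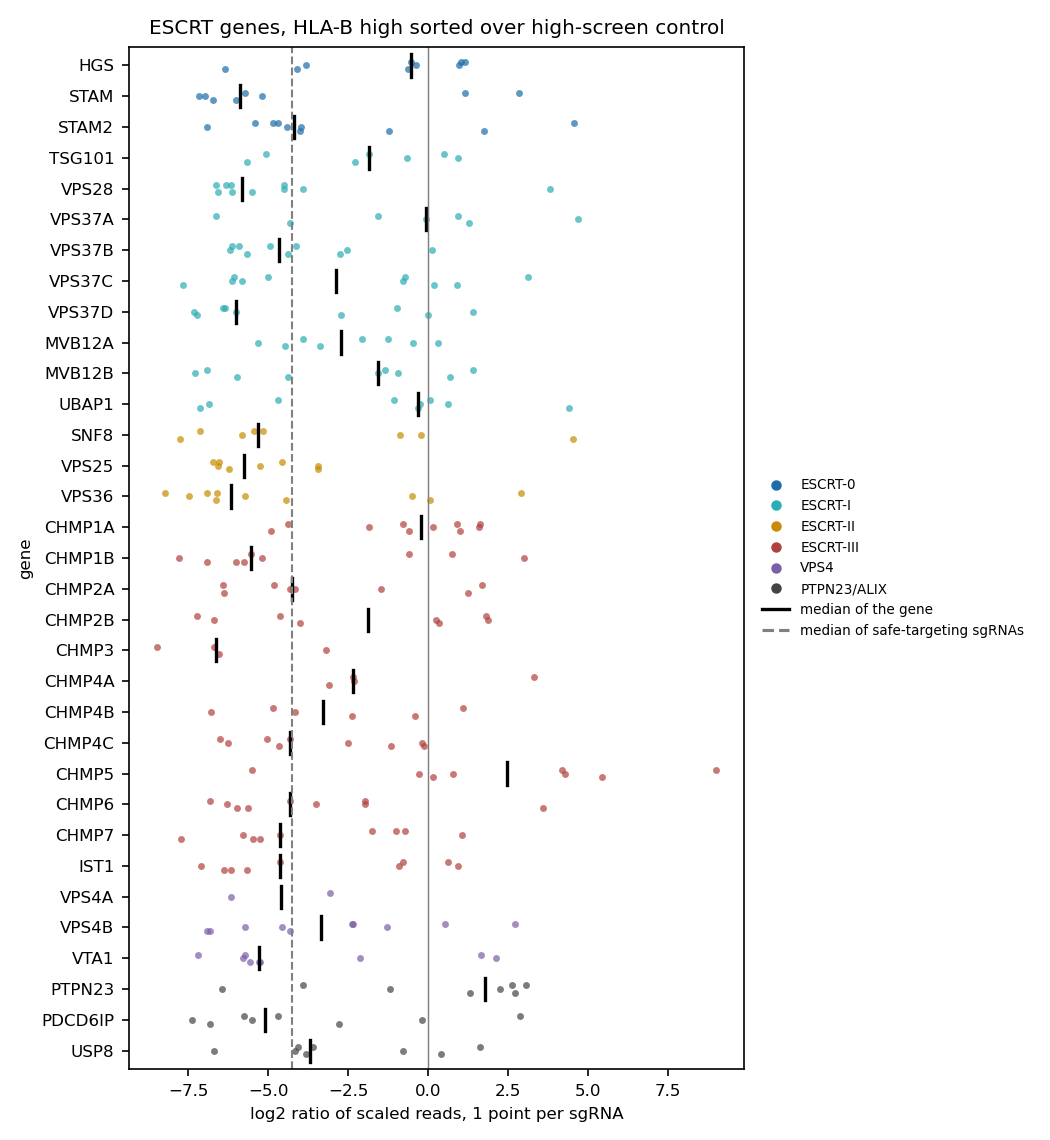
Log2 ratio of scaled reads, HLA-B high sorted over high-screen control, for each sgRNA (points) of the 33 ESCRT genes, coloured by class, with the median of each gene as a black bar. The dashed line is the median of safe-targeting sgRNAs (-4.25). On this scale of total reads only CHMP5 (2.48) and PTPN23 (1.77) have a median above 0.

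ESCRT-0 binds ubiquitin on cargo and consists of HGS with STAM or STAM2. The ESCRT-0 sgRNAs had a median log2 ratio of -4.00 against the high-screen control, and 6 of 27 were above 1 (22.2%, interval 8.62 to 42.3), beside 12.6% of all gene-targeting sgRNAs and 11.7% of safe-targeting ones. HGS, the scaffold of the complex, had the highest gene median of the class (-0.54), with 2 of 9 above 1. Its summed level was 32.3 CPM in the sort, against 32.0 CPM in the high-screen control and 33.4 CPM in the low-screen control. STAM had the lowest (-5.88): 7 of its 10 sgRNAs were absent from the sort, while 1 sgRNA with 1002 sorted reads, against 91 in the high-screen control, supplied 80.6% of the gene's reads. The STAM2 median was -4.21. No gene of the class was called.

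ESCRT-I bridges ESCRT-0 and the later complexes and is built from TSG101, VPS28, a VPS37 subunit and MVB12 or UBAP1. Its 79 ranked sgRNAs had a median of -3.91, with 7 above 1 (8.86%, interval 3.64 to 17.4). None of the 9 genes was called. VPS37A, a subunit that joins TSG101 and VPS28, had the highest median (-0.06), with 5 of its 10 sgRNAs at 117 to 469 sorted reads. VPS37D had the lowest (-6.00), and 1 sgRNA supplied 89.1% of its sorted reads. The 4 interchangeable VPS37 paralogs thus spread from -0.06 (VPS37A) through -2.89 (VPS37C) and -4.67 (VPS37B) to -6.00 (VPS37D). TSG101, which recognises ubiquitin and is also recruited by budding viruses, had a median of -1.85 with 7 of 8 sgRNAs present in the sort. MVB12B had a median of -1.58 and summed to 48.1 CPM in the sort, against 69.1 CPM in the high-screen control.

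Within ESCRT-I the summed levels gave another order from the medians, because single sgRNAs carried them. UBAP1 summed to 70.5 CPM in the sort, against 28.6 CPM in the high-screen control, with 73.6% of sorted reads from 1 sgRNA. VPS28 summed to 43.2 CPM in the sort, against 28.2 CPM in the high-screen control. Of the 10 VPS28 sgRNAs, 8 were absent from the sort and 1 had a single read, while the remaining sgRNA had 1478 reads and a log2 ratio of 3.82. MVB12A was abundant in both pools and lower in the sort, at 25.4 CPM, against 90.3 CPM in the high-screen control and 84.7 CPM in the low-screen control. VPS37B was lower still in the sort, at 2.68 CPM, against 22.9 and 40.2 CPM in the high-screen and low-screen controls. UBAP1, VPS28, MVB12A and VPS37B were picked out after their values were seen.

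ESCRT-II, made of SNF8, VPS25 and VPS36, nucleates ESCRT-III filaments through CHMP6. Of its 28 sgRNAs, 9 had any sorted read (32.1%, interval 15.9 to 52.4), the lowest share of the 6 classes. The interval overlaps those of the others, but it treats sgRNAs of the same gene as independent. The median of its 26 ranked sgRNAs was -5.59, and 2 were above 1. The gene medians were -5.32 for SNF8, -5.75 for VPS25 and -6.17 for VPS36. VPS25 had a single read in the whole HLA-B high sorted library (0.0292 CPM, interval 0.000739 to 0.163), against 473 reads in the high-screen control (21.0 CPM) and 2634 in the low-screen control (26.8 CPM), and all 8 of its ranked sgRNAs were below -1. SNF8 and VPS36 were each carried by 1 sgRNA, which supplied 91.5% and 85.3% of their sorted reads. None was called depleted against the high-screen control, where the ratio of an absent sgRNA is set by its control count (VPS25 exact adjusted p = 0.886).

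ESCRT-III forms the constricting filaments. Its 12 genes had 93 ranked sgRNAs with a median of -3.10 and 16 above 1 (17.2%, interval 10.2 to 26.4). Of the 16, 4 belonged to CHMP5. Without CHMP5 the median of the class was -4.00 and 12 of 85 were above 1 (14.1%). CHMP5 supplied 74.1% of the sorted reads of the class. CHMP4A, CHMP4B and CHMP4C, the main filament subunits, had medians of -2.34, -3.28 and -4.32. CHMP2A and CHMP2B, which cap and help to constrict the filament, stood at -4.25 and -1.88, and CHMP6, the link to ESCRT-II, at -4.31. CHMP7, which works with ESCRT-III at the nuclear envelope, and IST1, a regulator of VPS4, were both at -4.64.

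At the ends of ESCRT-III stood CHMP5 and CHMP3, another filament subunit. CHMP3 had 11 sorted reads (0.321 CPM), all from 1 of its 4 sgRNAs, against 629 reads in the high-screen control (27.9 CPM) and 1823 in the low-screen control (18.5 CPM). Its median was the lowest of all members (-6.63). The annotation places a readthrough gene, RNF103-CHMP3, over it, so cuts by these sgRNAs may fall in both. CHMP1A, a late-acting subunit that recruits VPS4, had a median of -0.22 with 8 of 10 sgRNAs present in the sort and 3 above 1. Its level was 81.8 CPM in the sort, against 53.2 CPM in the high-screen control and 48.7 CPM in the low-screen control. It was not called (RSA p = 0.00294, exact adjusted p = 0.886), and with at least 50 control reads required it passed the RSA call at 0.000597. CHMP1A was singled out after its values were seen. Its paralog CHMP1B had a median of -5.55.

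VPS4A and VPS4B are the ATPases that take ESCRT-III apart. The class, with VTA1, had 21 ranked sgRNAs, a median of -4.58 and 3 above 1. VPS4B had the highest median (-3.35), and VTA1, the partner of CHMP5, the lowest (-5.29). VTA1 had 4 of 10 sgRNAs in the sort, at 30.6 CPM, against 47.7 CPM in the high-screen control and 40.9 CPM in the low-screen control. VPS4A was measured by 2 sgRNAs only, each with 1 read in the sort, and its locus overlaps COG8 and PDF. No gene of the class was called in the sort.

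Beside PTPN23, its class held PDCD6IP (ALIX), which binds CHMP4, and USP8, which removes ubiquitin from cargo. The 3 genes had 24 ranked sgRNAs, 7 above 1 (29.2%, interval 12.6 to 51.1), of which PTPN23 held 5. PDCD6IP and USP8 had 1 of 8 above 1 each. PDCD6IP had the lowest median (-5.11), and 88.6% of its sorted reads came from 1 sgRNA. USP8 had a median of -3.70. In 23 of the 33 members more than 50% of the sorted reads came from 1 sgRNA. The summed level in the sort was above that in the high-screen control for 15 members, and without each gene's most abundant sorted sgRNA for 3 (CHMP1A, CHMP5 and PTPN23). Matching shares over all genes were not taken, so these counts are not read as traits of the ESCRT genes.

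**Figure D3:**
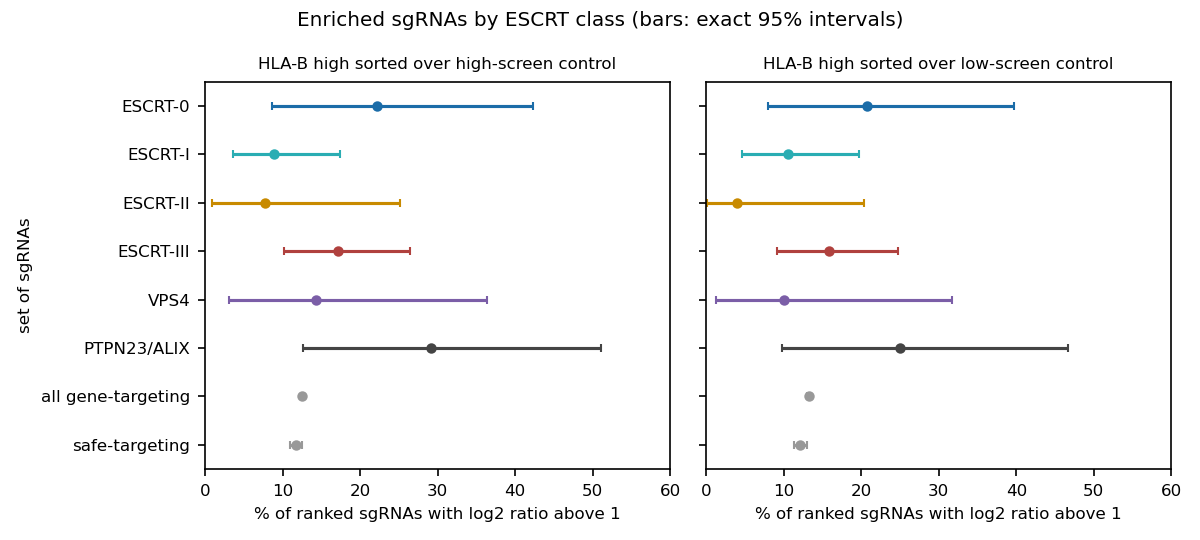
Share of ranked sgRNAs with a log2 ratio above 1 by ESCRT class, beside all gene-targeting and safe-targeting sgRNAs, for HLA-B high sorted over the high-screen control (left) and over the low-screen control (right). Bars are exact 95% intervals over sgRNAs, which treat sgRNAs of the same gene as independent. The shares run from 7.69% (ESCRT-II) to 29.2% (PTPN23/ALIX) on the left. The lower bound of PTPN23/ALIX (12.6%) lies beside the share of all gene-targeting sgRNAs (12.6%). PTPN23 holds 5 of the 7 sgRNAs of its class above 1 there, and PDCD6IP and USP8 have 1 of 8 each.

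The sort was also set against the low-screen control, which has more reads but comes from the other screen, with another IFN-γ dose and other sort days. Both comparisons use the same sorted library, so they are not independent. CHMP5 was again called, with an RSA p of 2.41e-07, place 6 and an exact adjusted p of 0.00673. Its 10 ranked sgRNAs had a median of 0.35, with 5 above 1 and 4 below -1. In the pools, its sgRNAs 1, 3 and 9 were at 0.222, 1.64 and 0.266 CPM in the high-screen control, against 6.69, 4.74 and 2.28 CPM in the low-screen control. PTPN23 had a median of 0.95 over 7 sgRNAs, an RSA p of 0.00861 and an exact adjusted p of 0.890, and was not called. Its sgRNAs 5 and 10, absent from the low-screen control, dropped out of this ranking.

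In this comparison 1 of 33 members was called enriched (CHMP5), beside 0.641% of all genes. At an exact adjusted p under 0.05 CHMP5 alone passed, beside 0.0345% of genes. At an unadjusted exact p under 0.05, 5 members passed (CHMP1A, CHMP5, HGS, PTPN23 and TSG101), beside 5.50% of genes. HGS had a median of 0.21, with 3 of 9 above 1, and TSG101 one of -1.94, with 2 of 7 above 1. For depletion no member was called, beside 0.581% of genes, and 4 passed an unadjusted exact p under 0.05 (CHMP1B, VPS25, VPS28 and VPS36), beside 5.67% of genes. VPS25 and VPS28 had every ranked sgRNA below -1 (9 of 9 and 7 of 7). VPS28 sgRNAs 1, 2 and 5, absent from the low-screen control, were not ranked, and sgRNA 5 had 1478 sorted reads. The summed levels of CHMP1B, VPS28 and VPS36 in the sort were 1.13, 1.98 and 1.44 times those of the low-screen control. That of VPS25 was 0.00109 times its level there. The medians of these 4 genes lay between -7.13 and -8.59, beside -6.07 over all genes. All 9 of these genes had an exact adjusted p of at least 0.783 except CHMP5.

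In the unsorted pools the ESCRT sgRNAs were less abundant than the typical sgRNA of the library. Their median was 69 reads in the high-screen control, where that of all gene-targeting sgRNAs was 86, and 284 reads in the low-screen control, where the library's was 386. By mean CPM per sgRNA, 7 of 33 members lay in the lowest 10% of genes in the high-screen control (VPS37B, VPS25, CHMP2A, CHMP2B, CHMP4B, CHMP5 and PTPN23). In the low-screen control 7 did as well (VPS28, UBAP1, SNF8, CHMP2A, VPS4A, PTPN23 and USP8). CHMP2A and PTPN23 were low in both, PTPN23 at percentile 1.55 in the high-screen pool and 5.42 in the low-screen pool. MVB12A, an accessory ESCRT-I subunit, was the only member in the highest 10%, at percentiles 97.8 and 97.0. The plasmid library was not analysed here, so a low level is not a measured loss of cells, and differences in how much of each sgRNA was put in cannot be told apart from growth.

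**Figure D4:**
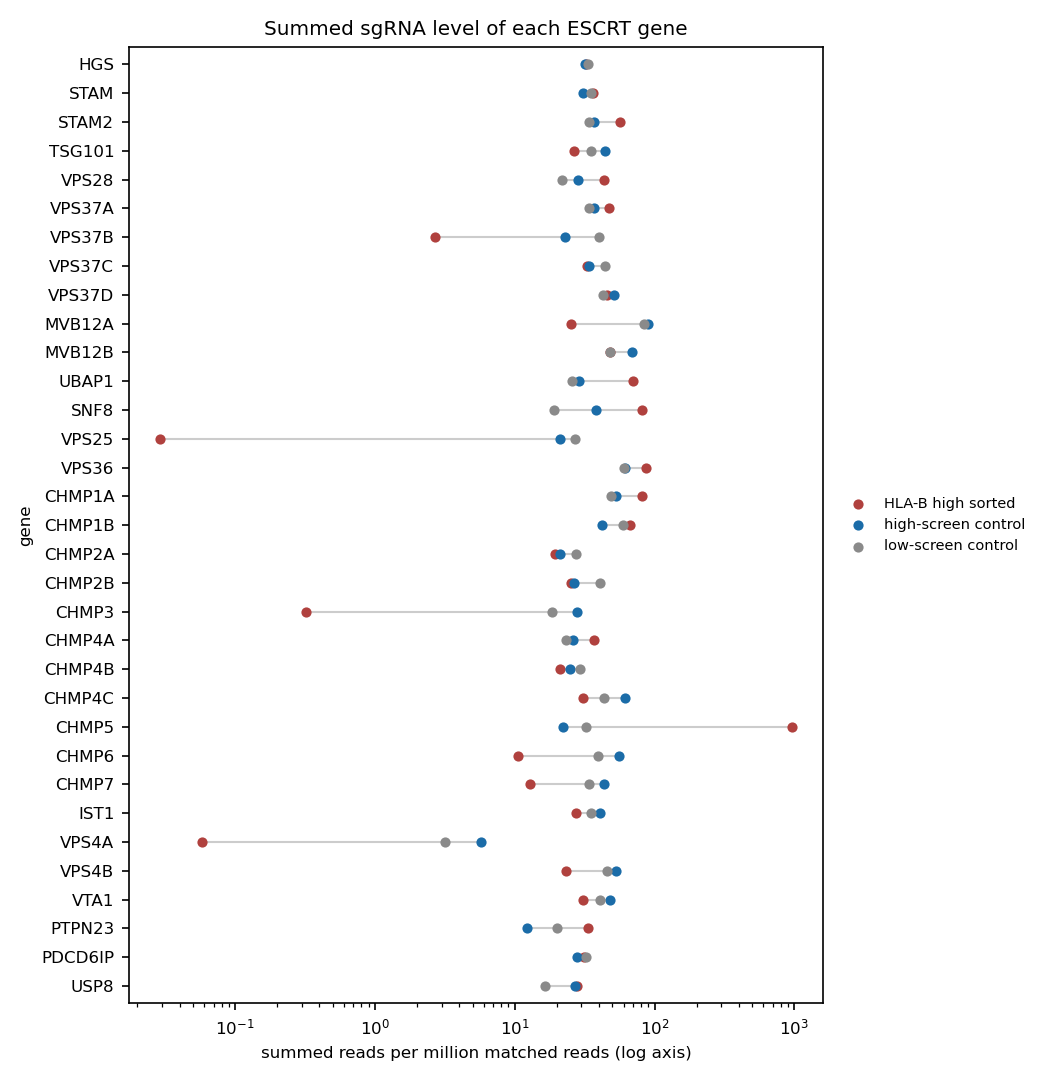
Summed CPM of all sgRNAs of each ESCRT gene on a log axis, in HLA-B high sorted (red), the high-screen control (blue) and the low-screen control (grey). CHMP5 reached 955 CPM in the sort, while VPS25, CHMP3 and VPS4A were below 1 CPM there. In the pools, every member with 8 or more sgRNAs lay between 12.3 and 90.3 CPM.

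Some sgRNAs were present in 1 pool and missing from the other. Of the members' 303 sgRNAs, 10 were absent from the high-screen control (3.30%) and 33 from the low-screen control (10.9%). Of all gene-targeting sgRNAs, 2.28% were absent from the first pool and 6.60% from the other. At its depth a count of 0 in the low-screen control allows a level of up to 0.0305 CPM. Of the 33, 27 reached 10 or more reads in the other pool, up to 215 for SNF8 sgRNA 3, and were spread over 21 members. They made up 8.91% of the members' sgRNAs, beside 5.08% of all gene-targeting sgRNAs with the same pattern. VPS28 had 3 of them. Such sgRNAs have very high ratios between the pools.

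Comparing the high-screen with the low-screen control, no member was called higher, beside 0.836% of all genes, and none lower, beside 0.733%. The median log2 ratio of the members' 296 ranked sgRNAs was 0.08, beside -0.03 over all gene-targeting sgRNAs. The 3 highest gene medians were those of VPS4A (3.28, from 2 sgRNAs at -2.43 and 9.00), SNF8 (1.00) and HGS (0.82). The 3 lowest were those of CHMP4B (-1.42), VPS25 (-0.62) and USP8 (-0.53). CHMP5 stood next, at -0.52, and PTPN23 at 0.19. At an unadjusted exact p under 0.05, 4 members were higher (SNF8, UBAP1, VPS28 and VPS4A), beside 6.62% of genes, and 1 was lower (CHMP4B), beside 6.29%. The best rank of SNF8 and VPS4A rested on 1 sgRNA each (sgRNAs 3 and 10), that of UBAP1 on 2 (4 and 6) and that of VPS28 on 3 (1, 2 and 5). All of these had no read in the low-screen control and met the minimum count through the high-screen control alone. The 4 sgRNAs at the best rank of CHMP4B (1, 2, 8 and 9) met it through the low-screen control alone. These 5 passes are therefore not taken as support for a difference between the pools.

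CHMP4B, a main filament subunit, had the lowest median between the pools, though it was not called. It had 6 of 10 sgRNAs below -1 and none above 1. Its sgRNAs 1 and 9 were absent from the high-screen control, against 160 and 74 reads in the low-screen control, and sgRNA 8 had 3 reads, against 226. Its RSA p was 0.00276 and its exact adjusted p 0.704. SNF8 had 5 of 9 sgRNAs above 1, with sgRNAs 3 and 7 at 215 and 72 reads in the high-screen control, against none in the low-screen control (exact adjusted p = 0.714). All 5 members that passed the unadjusted exact p had an exact adjusted p of at least 0.549.

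**Figure D5:**
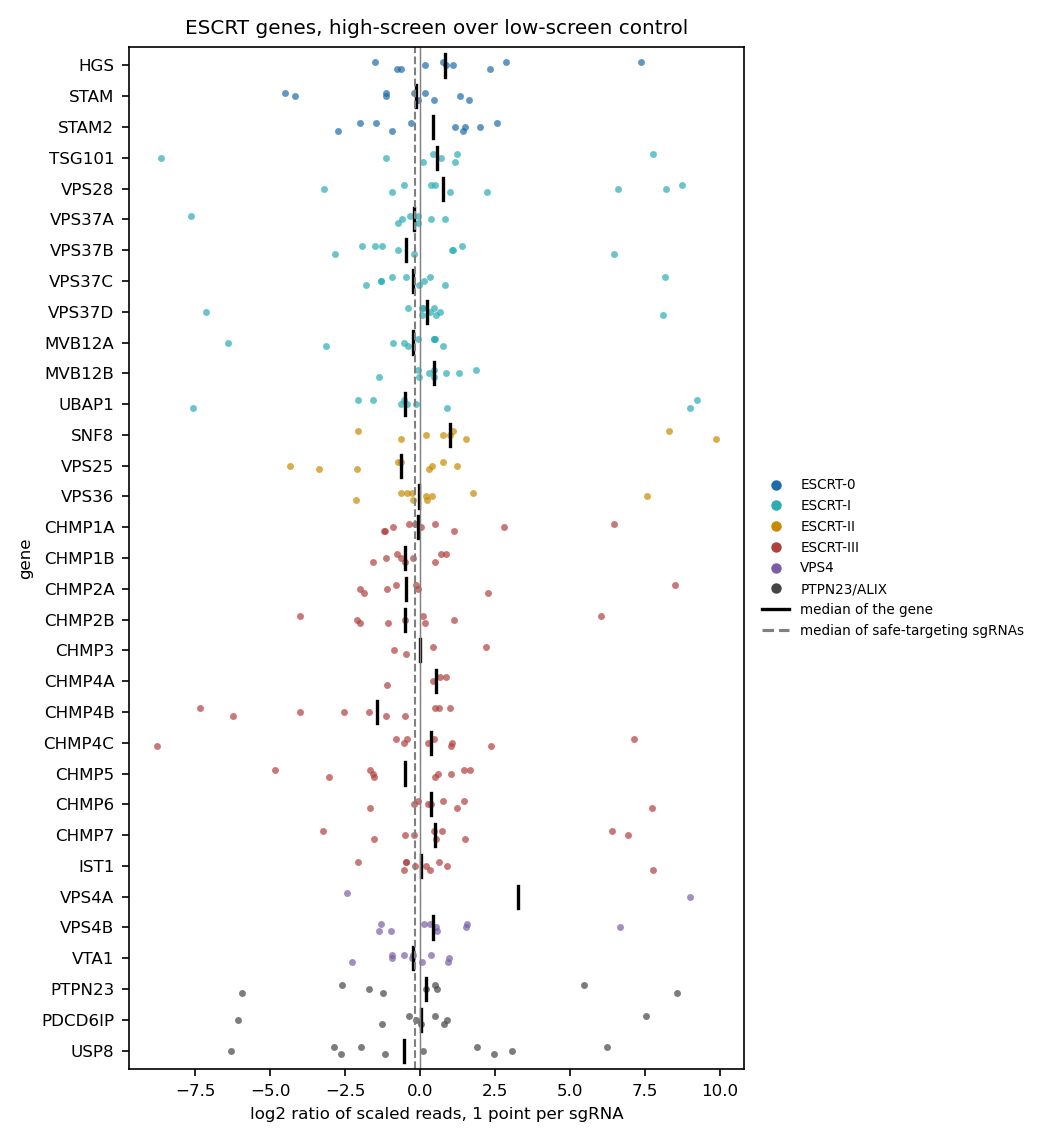
Log2 ratio of scaled reads, high-screen control over low-screen control, for each sgRNA (points) of the 33 ESCRT genes, coloured by class, with gene medians as black bars and the safe-targeting median (-0.16) as a dashed line. Points beyond 5 on either side are mostly sgRNAs that 1 pool lacks, and gene medians lie between -1.42 (CHMP4B) and 3.28 (VPS4A).

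Genes of 4 neighbouring lists were read in the same way: ESCRT-associated adaptors and cargo binders (25 genes), the tethering complexes HOPS and CORVET (15), the class III PI 3-kinase complexes (8) and retromer with its sorting nexins (10). Against the high-screen control 1 of these 58 was called enriched, beside 0.537% of all genes: ZFYVE19, which encodes a regulator of ESCRT in the cytokinesis checkpoint (median 1.39, 6 of 10 sgRNAs above 1, with an RSA p of 0.000242 and an exact adjusted p of 0.717). It was called against the low-screen control too (median 1.07, RSA p = 0.000226, exact adjusted p = 0.587), where 0.641% of genes were called, together with GGA2, an adaptor of clathrin coats (median -0.11, RSA p = 0.000192, exact adjusted p = 0.587), which had 3 of its 8 log2 ratios above 1. SNX2, a sorting nexin that partners retromer, was called depleted against the high-screen control, as were 0.414% of genes, with all 10 sgRNAs below -1 (RSA p = 0.000562, exact adjusted p = 0.833). No gene of HOPS, CORVET or the class III PI 3-kinase complexes was called in the sort.

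Between the pools 1 of the 58 was called higher, beside 0.836% of all genes, and 2 lower, beside 0.733%. VPS35, the core of retromer, was higher in the high-screen than in the low-screen control (median 1.93, 7 of 9 sgRNAs above 1, exact adjusted p = 0.297). GGA3, another clathrin adaptor, was lower (median -1.92, exact adjusted p = 0.559), as was PIK3C3, the catalytic subunit of the class III PI 3-kinase (median -2.08, exact adjusted p = 0.577). The medians over the gene medians of the 4 lists were between -4.63 and -4.20 against the high-screen control, beside -4.30 over all genes.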

How the data were processed

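For each sgRNA the authors deposited a raw read count with no normalization, from reads that were trimmed, mapped to the sgRNA sequences and kept where they had a single match. In the submitters' processing notes the tools are bcl2fastq, cutadapt and Bowtie2, with versions not given in the sources used here. sgRNAs not listed for a library were set to 0. Unmatched reads (21.9% of the HLA-B high sorted library, 20.6% of the high-screen control, 12.1% of the low-screen control) did not enter any total. The title and the data name of the low-screen control disagree on the antibody, which does not alter its use as an unsorted pool. The day on which the unsorted cells were harvested is not given in the sources used here. Other sorted libraries were not analysed here.

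The software was Python 3.11.15 (numpy 2.4.6; pandas 2.3.3; scipy 1.17.1), with figures from matplotlib 3.10.9. Minimum counts applied to the control, or to either pool when pools were compared. RSA was run one-sided from each end over all sgRNAs, controls included, tied ratios taking the worst rank, and its score was set against the exact distribution for a gene with that number of sgRNAs. The procedure was also run on shuffled log2 ratios in which ties were broken. Ties were kept in the data, so that run does not cover tied ratios. edgeR was not used, because 1 library per group leaves it no spread between libraries to estimate. Shares have exact Clopper-Pearson 95% intervals, which treat sgRNAs as independent although several target the same gene. Summed reads have exact Poisson 95% intervals, for counting error only. Neither kind covers the error between replicate screens. Positions are from GENCODE release 44 on GRCh37, matched by gene identifier.

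The members, classes and lists were chosen with earlier results of these data known. All members are accounted for, and the sorted reads of every sgRNA are given for called members. In each class the genes with the highest and lowest median are named. Alternatives were another pseudocount, other minimum counts, other call rules, leaving out the most extreme sgRNA, and scaling to safe-targeting sgRNAs.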

Additional observations from a re-analysis of the deposited data

How the results depend on the processing

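The members called enriched against the high-screen control were CHMP5 and PTPN23 with a pseudocount of 5 and with no minimum count. They were also CHMP5 and PTPN23 when the same RSA p was asked for with 4 sgRNAs of log2 ratio over 1 at any rank. With a minimum count of 50 the count was 1 (CHMP1A), by the exact adjusted p below 0.05 it was 1 (CHMP5), and with the most extreme sgRNA of each gene left out it was 0. In the last case the RSA p of CHMP5 was 1.89e-08 and that of PTPN23 9.8e-05. Both calls were lost because 3 sgRNAs each were left at the best rank. In this setting every gene lost its most extreme sgRNA before the ranking was redone, and enriched calls over all genes rose from 109 to 191. Its RSA p values are therefore not comparable with the main ones, and a smaller one is not stronger evidence. With a minimum of 50 CHMP5 kept 4 sgRNAs, 2 of them at the best rank (9.98e-05), and PTPN23 kept 2 (0.521). Over the other 5 counts, all alternatives gave the same number of members, except that against the low-screen control the 1 call without the most extreme sgRNA was CHMP1A (0.00067) in place of CHMP5.

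Over all genes, leaving out the most extreme sgRNA gave 191 enriched calls against the high-screen control in place of 109, and 166 depleted in place of 84. Against the low-screen control it gave 197 enriched in place of 130, and 192 depleted in place of 118. Between the pools it gave 253 lower in place of 149. Depleted calls against the high-screen control were 142 when the same RSA p was asked for with 4 sgRNAs below -1 at any rank. Higher calls between the pools were 110 in place of 170 with a minimum count of 50. The exact adjusted p gave 1 depleted gene against the high-screen control, 0 against the low-screen control, and 0 in either direction between the pools.

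Scaled so that the safe-targeting sgRNAs had a median of 0, the median log2 ratio of the members' sgRNAs was 1.37, beside -0.60 over all gene-targeting sgRNAs, and those of CHMP5 and PTPN23 were 9.46 and 8.74. This scaling rests on a safe-targeting median of 1 sorted read. It left 20 genes above CHMP5 and 49 above PTPN23. Of the ranked sgRNAs, 43.3% of the members' and 48.5% of all gene-targeting ones had no sorted read. Both medians thus lie near the edge of those sgRNAs, where 1 sorted read counts as 84. The members' sgRNAs here include those of CHMP5 and PTPN23. On the scale of total reads the 2 medians were -3.99 and -4.39, so the gap is not read as enrichment of the group. No paired analysis was possible because each group held 1 library.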
